A study of Homo sapiens with 4 samples.

Results

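The RNA exosome subunits are the genes with the symbols EXOSC1 to EXOSC10, all 10 of which were found in the expression table among 33089 rows with a gene symbol. They were measured by RNA sequencing in HT29, an established human colorectal cancer cell line, in 2 libraries of cells kept with 100 µM fluorouracil for 2 h and 2 libraries of untreated cells. The labels name no vehicle for the untreated cells. Values are in FPKM, mapped fragments scaled to transcript length and to the library's total, and each gene has 1 value per library. The labels do not say whether replicates are separate cultures; the spread on which p-values rest is that between these libraries and may be technical.

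The exosome is the main 3′ to 5′ exonuclease of eukaryotic cells. It trims precursors of ribosomal RNA and small nucleolar RNA in the nucleus and degrades mRNA in the cytoplasm. Its core is a barrel of 6 ring subunits that resemble the bacterial enzyme RNase PH, topped by 3 cap subunits that hold RNA-binding domains; in humans this core has lost catalytic activity. Hydrolysis is done by attached nucleases, the nuclear EXOSC10 and, at the other end of the barrel, DIS3 or its cytoplasmic relative DIS3L. Fluorouracil is a pyrimidine analogue whose metabolites inhibit thymidylate synthase and are built into RNA, and EXOSC10 is a reported target of its action on RNA. In budding yeast, loss of Rrp6, the counterpart of EXOSC10, is known to sensitize cells to the drug. The comparison therefore asks whether short exposure to fluorouracil altered the transcripts of the subunits themselves.

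No subunit passed the test between fluorouracil and untreated cells. In fluorouracil replicate 1, 8 subunits stayed between 0.895 and 1.13 times the untreated mean, and the exceptions, EXOSC2 and EXOSC4, were at 0.742 and 0.639 times it. In fluorouracil replicate 2, 7 subunits lay above both untreated values and 3 below both, from 2.21 times the untreated mean for EXOSC5 to 0.576 times for EXOSC3. In that library 52.9% of all genes tested lay above both untreated values and 41.4% below both. For EXOSC8 and EXOSC10 the treated pair was wholly above the untreated pair, and for EXOSC2 wholly below it, while 7 subunits overlapped. Over all 12462 genes tested, 24.4% had such higher values and 19.3% such lower values. The test was limma on log2(FPKM + 0.1) for genes averaging 1 FPKM or more, with Benjamini-Hochberg adjustment; all 10 subunits passed that filter. It called 0 of 12462 genes (0.00%), while 400 (3.21%) had an unadjusted p below 0.05, none of them a subunit. With the replicate number as a block, 339 genes (2.72%) and 0 subunits passed. Adjusted p-values of the subunits ran from 0.671 to 0.979. A log2 change on this scale understates the change of weakly expressed genes. For any 1 gene, the smallest two-sided p that an exact permutation of 2 and 2 libraries can reach is 0.333. The amount of RNA from these genes per cell and the make-up of the cell population cannot be told apart in bulk samples.

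**Figure D1:**
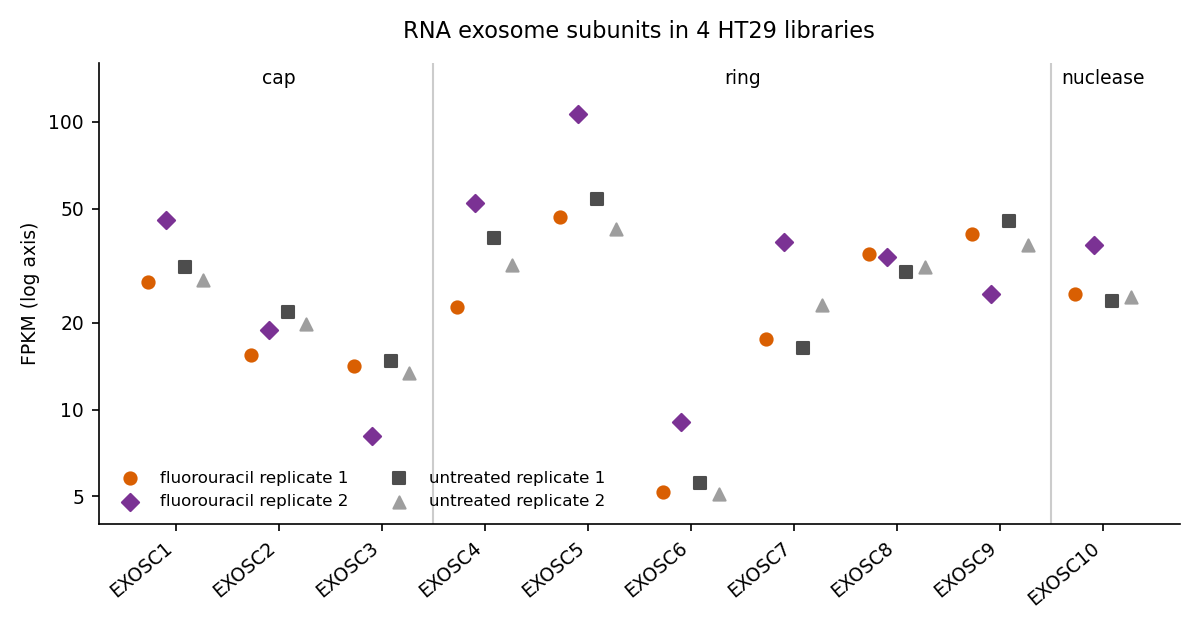
FPKM of the 10 RNA exosome subunits on a log axis, grouped as cap, ring and nuclease, with 1 symbol for each of the 4 libraries. The EXOSC5 symbols reach 106 FPKM in fluorouracil replicate 2, and the EXOSC6 symbols lie between 5.08 and 9.06 FPKM.

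The libraries themselves differed. The FPKM values of fluorouracil replicate 2 summed to 764861 over the table, and those of the other libraries to between 427007 and 440558. Its values carry a median of 6 significant digits, against 16 in the others. In fluorouracil replicate 2, 5344 tested genes (42.9%) were at least 1 log2 unit from the untreated mean, and in fluorouracil replicate 1, 608 (4.88%). Depth in fragments is unknown; ratios of low values put fluorouracil replicate 1 at 1.02 times and untreated replicate 2 at 1.05 times the depth of untreated replicate 1, and in fluorouracil replicate 2 the most frequent ratio held only 0.248% of 2418 rows, so that no depth was taken from it. Of 10 colorectal epithelial markers, 8 reached a mean of 1 FPKM, and the transcription factor genes CDX1 and CDX2 stayed below 1 FPKM in every library. Of 12 markers of fibroblasts, blood and endothelium only LUM did, and their summed FPKM were 3.46 and 2.37 in fluorouracil libraries and 4.92 and 4.38 in untreated ones, with COL3A1, DCN, CD3E and HBB at 0 in all 4 libraries.

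The 10 genes are scattered over 9 chromosomes (GENCODE 29 on GRCh38). The cap genes are EXOSC1 (chr10:97436142-97446017, minus strand), EXOSC2 (chr9:130693721-130704894, plus) and EXOSC3 (chr9:37766978-37801437, minus). Ring genes on the plus strand are EXOSC4 (chr8:144078626-144080647), EXOSC7 (chr3:44975241-45036066), EXOSC8 (chr13:36998816-37009613) and EXOSC9 (chr4:121801317-121817021). Ring genes on the minus strand are EXOSC5 (chr19:41386374-41397479) and EXOSC6 (chr16:70246778-70251930). EXOSC1, EXOSC2 and EXOSC6 share no exonic base with another annotated gene.

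EXOSC10, the nuclear 3′ to 5′ exonuclease of the complex, measured 25.3 and 37.2 FPKM in the fluorouracil libraries, against 23.8 and 24.6 FPKM in the untreated ones. Both treated values were higher, the first by less than 1 FPKM over the nearer untreated value. Group levels were 31.2 ± 8.41 FPKM with fluorouracil and 24.2 ± 0.565 FPKM untreated (SD, n = 2 each). The log2 change was 0.34 (SE 0.33, limma adjusted p = 0.673), the mean of deviations of 0.06 in fluorouracil replicate 1 and 0.62 in replicate 2. The EXOSC10 gene (GRCh38 chr1:11066618-11099881, minus strand) has 25 exons, and 2 antisense genes annotated there, AL109811.1 and AL109811.2, share 7.87% and 5.73% of its exonic bases. Whether the libraries kept strand is not given in the sources used here, so reads of such pairs cannot be told apart.

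DIS3, the exonuclease and endonuclease at the base of the barrel, had lower values in both treated libraries, at 27.1 and 17.4 FPKM with fluorouracil and 29.7 and 31.5 FPKM untreated (log2 change -0.49, SE 0.34, limma adjusted p = 0.671). The ratio of EXOSC10 to DIS3 in FPKM was 0.932 and 2.14 in fluorouracil replicates 1 and 2, and 0.804 and 0.781 in untreated replicates 1 and 2. Both treated ratios of levels were higher, with fluorouracil replicate 1 close to the untreated pair and replicate 2 far from the other 3 libraries. The DIS3 transcript has 39.1% GC and that of EXOSC10 49.3%. After removal of the trend on GC and length, the deviation of fluorouracil replicate 2 from the untreated mean was 0.28 for EXOSC10 and 0.21 for DIS3, and the log2 change of DIS3 was 0.025. Its cytoplasmic relative DIS3L had 4.74 and 4.51 FPKM with fluorouracil, against 5.83 and 5.70 FPKM untreated. These groups did not overlap either, and the treated libraries lay close together at 0.822 and 0.782 times the untreated mean (log2 change -0.31, SE 0.28, limma adjusted p = 0.671). DIS3L2, a related nuclease that acts without the exosome on uridylated RNA, overlapped at 4.97 and 8.13 FPKM with fluorouracil and 5.43 and 5.47 FPKM untreated.

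The 3 cap subunits did not share a direction. EXOSC1, an S1-domain protein that contacts the ring, had 27.7 and 45.7 FPKM in fluorouracil libraries, against 31.4 and 28.1 FPKM in untreated libraries. Its treated values lie on either side of the untreated pair. EXOSC2, a cap subunit with S1 and KH domains, measured 15.4 and 18.9 FPKM with fluorouracil and 21.8 and 19.8 FPKM untreated. It was the sole subunit with both treated values below both untreated ones (17.2 ± 2.45 against 20.8 ± 1.42 FPKM, SD, n = 2 each; log2 change -0.28, SE 0.28, limma adjusted p = 0.679). The sign of the EXOSC2 change was negative in each of 12 settings, from -0.14 without fluorouracil replicate 1 to -0.71 with libraries scaled to the same FPKM total. EXOSC2 passed in none of the 11 alternatives. As its pairs do not overlap, leaving out 1 library or adding 1 rather than 0.1 FPKM could not change that sign. The replicate block and the fit without a filter leave the estimate as it is. Scaling to the same FPKM total moved the median of all genes by -0.43. Quantile normalization moved it by -0.12 and removal of the trend on GC and length by -0.14, also downward. The number of settings is therefore no separate support for the sign. EXOSC9, whose pairs overlapped, was also negative in each setting, though at only -0.0033 without fluorouracil replicate 2. EXOSC3, the third cap subunit, in which inherited mutations cause pontocerebellar hypoplasia, had 14.1 and 8.09 FPKM with fluorouracil and 14.7 and 13.4 FPKM untreated. Only fluorouracil replicate 2 left the untreated range, at 0.576 times the untreated mean. Annotated on the minus strand of chromosome 9, EXOSC3 shares 8.31% of its exonic bases with AL138752.2 on the same strand.

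Among the 6 ring subunits, EXOSC4, EXOSC5, EXOSC6 and EXOSC7 were highest in fluorouracil replicate 2. EXOSC4, the human counterpart of yeast Rrp41, was lowest of all in fluorouracil replicate 1: it had 22.7 and 52.3 FPKM in fluorouracil replicates 1 and 2, and 39.5 and 31.7 FPKM in untreated replicates 1 and 2. The treated values therefore enclose the untreated pair, and the log2 change was -0.04 (SE 0.50, limma adjusted p = 0.979). In fluorouracil replicate 1 only 3.84% of tested genes deviated further downward from the untreated mean than EXOSC4, and 7.67% further than EXOSC2. An antisense gene, AC109322.1, overlaps 30.9% of the exonic bases of EXOSC4. EXOSC5, the counterpart of yeast Rrp46, had 46.8 and 106 FPKM with fluorouracil, against 54.0 and 42.3 FPKM untreated. Its first treated value sits inside the untreated range and its second is 2.21 times the untreated mean, which gave the largest log2 change of the 10 subunits in either direction (0.56, SE 0.50, limma adjusted p = 0.671). That change was -0.030 without fluorouracil replicate 2 and -0.30 after removal of the trend on GC and length, where EXOSC4 had the largest (-1.04).

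EXOSC6, encoded by a gene of 1 exon and the counterpart of yeast Mtr3, was at 5.15 and 9.06 FPKM with fluorouracil and 5.57 and 5.08 FPKM untreated. EXOSC7, the counterpart of yeast Rrp42, had 17.6 and 38.2 FPKM with fluorouracil and 16.4 and 23.0 FPKM untreated. The untreated libraries disagreed most over EXOSC7, by 0.49 on the log2 scale, a gap exceeded by 8.87% of tested genes. EXOSC8, the counterpart of yeast Rrp43, was the steadiest subunit as deposited, with 34.6 and 33.9 FPKM with fluorouracil and 30.1 and 31.3 FPKM untreated. Both treated values were higher (34.3 ± 0.519 against 30.7 ± 0.884 FPKM, SD, n = 2 each; log2 change 0.16, SE 0.27, limma adjusted p = 0.777). With the trend on GC and length removed, EXOSC8 was at 0.13 and -0.34 in fluorouracil replicates 1 and 2 relative to the untreated mean. EXOSC9, first known as the smaller PM/Scl autoantigen, measured 40.9 and 25.3 FPKM with fluorouracil, against 45.2 and 37.2 FPKM untreated. The first treated value of EXOSC9 lay within the untreated range and the second below it. Its exons share 9.59% of their bases with CCNA2, the cyclin A2 gene on the opposite strand, and those of EXOSC8 share 7.51% with SUPT20H, a protein-coding gene on the opposite strand. The shared part was 5.78% for EXOSC7, with CLEC3B on the same strand, and 1.79% for EXOSC5, with BCKDHA on the opposite one.

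Although the core takes up its subunits in equal numbers, their transcript levels per length spanned a wide range. In untreated cells the mean FPKM ran in the order EXOSC5 (48.2), EXOSC9 (41.2), EXOSC4 (35.6), EXOSC8 (30.7), EXOSC1 (29.8), EXOSC10 (24.2), EXOSC2 (20.8), EXOSC7 (19.7), EXOSC3 (14.1) and EXOSC6 (5.33). Ranges of neighbours overlapped for EXOSC5 with EXOSC9, EXOSC9 with EXOSC4, EXOSC8 with EXOSC1 and EXOSC2 with EXOSC7; the other 5 neighbouring pairs were separate. In the fluorouracil libraries every neighbouring pair overlapped except EXOSC2 and EXOSC3. EXOSC5 ranked first in each of the 4 libraries, and EXOSC6 ranked last in all but fluorouracil replicate 2, where EXOSC3 did. The highest subunit exceeded the lowest 9.09-fold and 13.1-fold in fluorouracil replicates 1 and 2, and 9.69-fold and 8.32-fold in untreated replicates 1 and 2. As a share of the summed FPKM of the 10 subunits, EXOSC5 took 18.7% and 28.3% with fluorouracil, against 19.1% and 16.5% untreated. The share of EXOSC9 was 16.3% and 6.74% with fluorouracil, against 16.0% and 14.5% untreated, so in fluorouracil replicate 2 alone it dropped from second to seventh place.

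**Figure D2:**
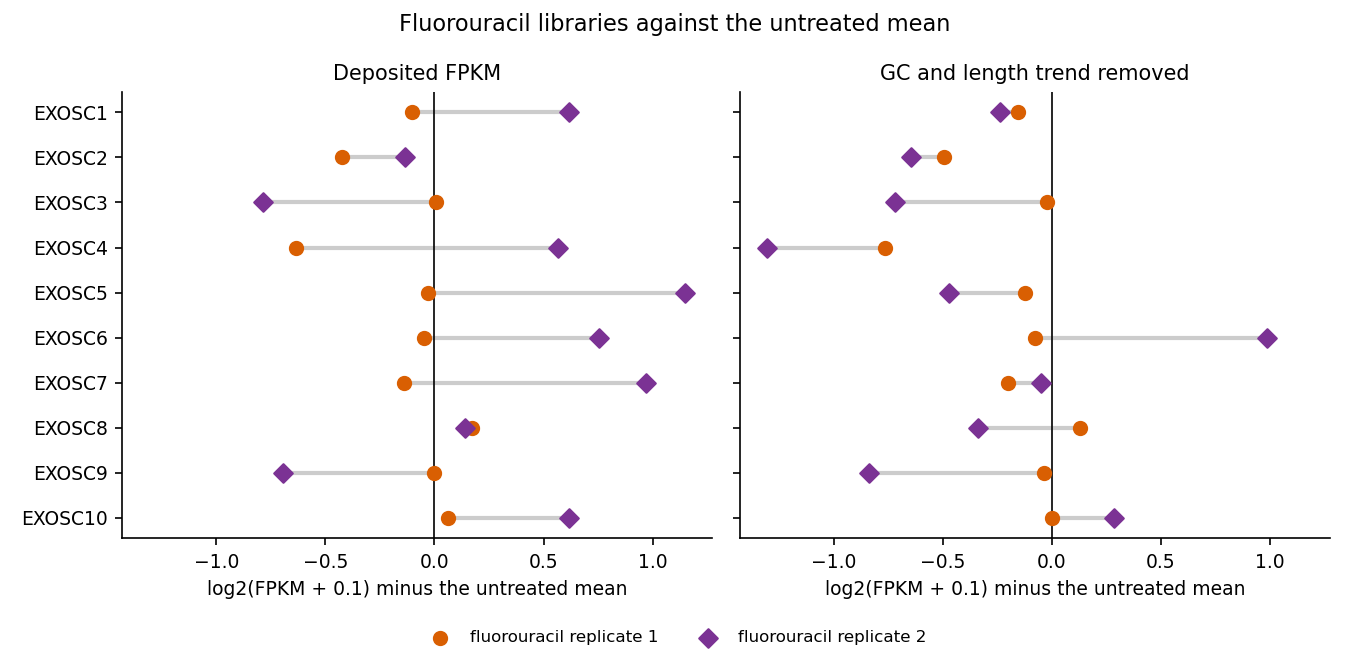
Log2(FPKM + 0.1) of each fluorouracil library minus the untreated mean for the 10 subunits, as deposited (left) and with the GC and length trend of each library removed (right); a grey bar joins the 2 fluorouracil libraries of a subunit. On the left, fluorouracil replicate 1 keeps 8 subunits near 0 while replicate 2 spreads from -0.79 to 1.15; on the right, EXOSC2 and EXOSC4 have both symbols well below 0, and EXOSC6 reaches 0.99 in replicate 2.

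The deviations of fluorouracil replicate 2 moved with the base composition of the transcripts. Over 10938 protein-coding genes its median deviation from the untreated mean was -0.64 below 45% GC, 0.06 from 45% to 50%, 0.61 from 50% to 55%, 0.998 from 55% to 60% and 1.37 above 60%. In fluorouracil replicate 1 the same medians lay between -0.02 and 0.02. The subunits followed a like order in fluorouracil replicate 2. EXOSC3 and EXOSC9, at 42.0% and 42.9% GC, were at -0.79 and -0.70, EXOSC7 at 51.0% GC was at 0.97, and EXOSC5 at 61.5% GC was at 1.15. EXOSC4 had the most GC of the 10 (64.4%) and was at 0.56; both it and EXOSC5 were below the median of their bin, and EXOSC7 above that of its own. Across the 10 subunits, which share 1 library, Pearson's r between GC content and this deviation was 0.62 and Spearman's rho was 0.61, against 0.57 and 0.71 across the 10938 genes. In fluorouracil replicate 1 they were -0.61 and -0.66 for the subunits, against 0.04 and 0.03 for all genes. These are descriptions across genes, which are not independent replicates.

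The difference in composition can be read in the coding sequences of the subunits, which run from 41.9% GC in EXOSC8 to 78.4% in EXOSC6. Below are 90 coding bases, inside a single exon, for EXOSC6, whose coding sequence is the most GC-rich, EXOSC5, the third in that order, EXOSC9 and EXOSC8, the least GC-rich, and EXOSC10, from GENCODE 29 transcripts on GRCh38, written 5′ to 3′ with each G and C in capitals. The window is the one nearest in GC content to the whole coding sequence.
EXOSC6: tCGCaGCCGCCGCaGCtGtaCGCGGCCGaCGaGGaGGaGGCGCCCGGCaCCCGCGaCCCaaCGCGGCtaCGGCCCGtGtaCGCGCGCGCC
EXOSC5: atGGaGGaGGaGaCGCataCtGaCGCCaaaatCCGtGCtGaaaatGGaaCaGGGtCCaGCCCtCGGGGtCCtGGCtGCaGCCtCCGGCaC
EXOSC10: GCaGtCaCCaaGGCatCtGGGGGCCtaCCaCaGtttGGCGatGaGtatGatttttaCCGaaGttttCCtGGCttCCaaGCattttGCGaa
EXOSC9: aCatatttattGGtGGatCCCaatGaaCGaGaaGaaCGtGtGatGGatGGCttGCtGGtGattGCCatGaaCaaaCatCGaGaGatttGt
EXOSC8: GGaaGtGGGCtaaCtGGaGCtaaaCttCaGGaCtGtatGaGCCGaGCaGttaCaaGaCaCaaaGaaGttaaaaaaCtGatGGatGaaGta
The EXOSC6 stretch lies on the minus strand at chr16:70251772-70251861 in the single exon of the gene and holds 78.9% GC. The EXOSC5 stretch covers codons 1 to 30 in exon 1 of 6, on the minus strand at chr19:41397239-41397328, with 61.1% GC. That of EXOSC10 comes from exon 2 of 25, on the minus strand at chr1:11098046-11098135, with 48.9% GC. Those of EXOSC9 (exon 7 of 12, plus strand, chr4:121809968-121810057) and EXOSC8 (exon 11 of 11, plus strand, chr13:37009186-37009275) each hold 42.2% GC. In fluorouracil replicate 2 these genes stood in the order EXOSC5 (1.15), EXOSC6 (0.76), EXOSC10 (0.62), EXOSC8 (0.14) and EXOSC9 (-0.70) by deviation from the untreated mean. EXOSC6 differs between scales: its whole transcript, with a long stretch outside the coding sequence, has 45.7% GC over 5153 bases.

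**Figure D3:**
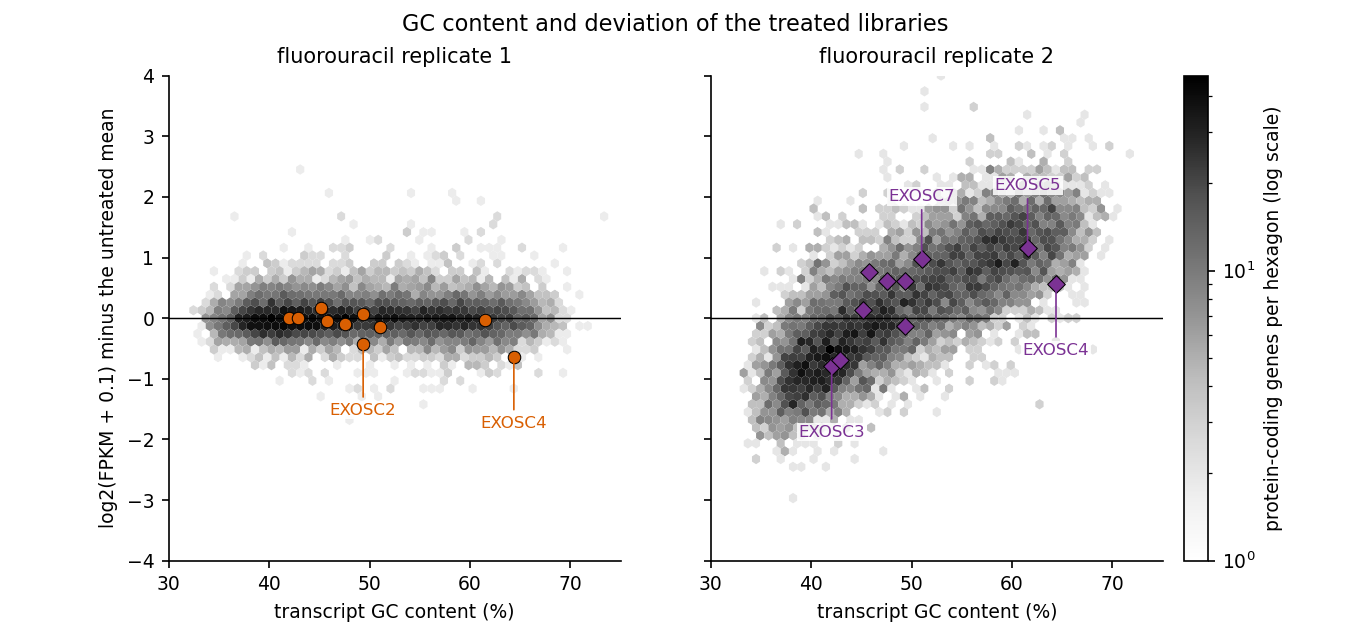
Transcript GC content (%) against log2(FPKM + 0.1) minus the untreated mean, for fluorouracil replicate 1 (left) and replicate 2 (right); grey hexagons count protein-coding genes and coloured symbols are the 10 subunits. The grey band is level on the left and climbs on the right, where EXOSC3 is at -0.79 and EXOSC5 at 1.15; EXOSC4 is at 0.56.

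With the trend of each library on transcript GC content and length removed by a loess fit, 3 subunits had both treated values below both untreated values, namely EXOSC1, EXOSC2 and EXOSC4, and 0 had both above. Such lower values were seen in 28.4% and higher values in 18.8% of the 10938 genes. The median log2 change of the subunits was then -0.25, against -0.04 for all genes, where it was 0.21 against 0.10 as deposited. EXOSC4 was at -0.76 and -1.31 in fluorouracil replicates 1 and 2 relative to the untreated mean (log2 change -1.04, SE 0.24, limma adjusted p = 0.460). EXOSC2 was at -0.49 and -0.64 (log2 change -0.57, SE 0.16, limma adjusted p = 0.515). These 2 had an unadjusted p below 0.05, as did 964 of the 10938 genes (8.81%), and 0 genes passed after adjustment (0.00%). EXOSC10 overlapped in that fit, at 0.002 and 0.28, and EXOSC6 stood apart in fluorouracil replicate 2 at 0.99, against 0.76 as deposited. That EXOSC6 value rests on 45.7% GC over its whole transcript, where its coding sequence has 78.4%. The median gap between fluorouracil libraries over the subunits was 0.41 after removal of the trend, against 0.76 as deposited. Over all genes it was 0.35, against 0.83. The trend was fitted to these same values, so a smaller gap over all genes follows in part from the step itself.

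Taken against the total of each library, the subunits together made up a smaller part of the FPKM with fluorouracil. Their summed FPKM was 250 and 375 in fluorouracil replicates 1 and 2, and 282 and 257 in untreated replicates 1 and 2. As a share of the FPKM total of the table these sums were 0.0568% and 0.0490% with fluorouracil, against 0.0650% and 0.0601% untreated. The groups overlap on the first scale and are separate on the second. With every library scaled to the same total, 4 subunits had both treated values below both untreated ones and 0 above, where 31.1% of all genes had such lower values and 12.5% such higher values. On that scale the median log2 change was -0.22 for the subunits and -0.32 for all genes, so the subunits' median was above that of all genes.

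The cofactors that bring RNA to the exosome were likewise mixed. Of 18 genes, all tested, the treated pair was wholly higher for 5, wholly lower for 4 and overlapping for 9; 24.4% and 19.3% of all genes were wholly higher and wholly lower. The median log2 change of the cofactors was 0.00074 and none of them had an unadjusted p below 0.05. At the same FPKM total 1 cofactor was wholly higher and 7 wholly lower (12.5% and 31.1% of all genes), with a median of -0.43, against -0.32 for all genes. After removal of the trend on GC and length 5 and 7 were (18.8% and 28.4% of all genes), with a median of -0.042, against -0.036 for all genes. The counts were 9 higher and 8 lower without fluorouracil replicate 1 and 8 and 8 without fluorouracil replicate 2, where 52.9% and 41.4%, and 39.0% and 36.4%, of all genes stood outside the untreated values in those directions. In the nucleus, the helicase gene SKIV2L2, also called MTREX, which unwinds substrates for EXOSC10 and DIS3, had 36.8 and 13.8 FPKM with fluorouracil and 41.3 and 42.6 FPKM untreated. Both values were lower, the second by far (log2 change -0.89, SE 0.55, limma adjusted p = 0.671). C1D and MPHOSPH6, small proteins that bind EXOSC10 or the helicase, overlapped, with log2 changes of -0.05 and -0.02. In NEXT, the adaptor for promoter upstream transcripts, ZCCHC8 measured 12.5 and 11.4 FPKM with fluorouracil and 10.7 and 9.89 FPKM untreated, a higher pair. Its RNA-binding partner RBM7 had a lower pair, 20.5 and 8.30 FPKM with fluorouracil against 22.0 and 20.8 FPKM untreated.

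PAPD5, also called TENT4B, the poly(A) polymerase of TRAMP that tags RNA for decay, had 8.06 and 5.95 FPKM with fluorouracil and 4.74 and 4.26 FPKM untreated. Both treated values were higher, and fluorouracil replicate 1 was the further of them from the untreated mean, at 1.79 times it (log2 change 0.61, SE 0.32, limma adjusted p = 0.671). Without the trend on GC content and length the change was 0.92 (limma adjusted p = 0.439). Its relative PAPD7 (TENT4A) had 17.4 and 20.3 FPKM with fluorouracil, against 16.9 and 16.7 FPKM untreated, and ZCCHC7, the third TRAMP member, overlapped with a log2 change of -0.06. For the PAXT connection, which handles polyadenylated nuclear RNA, ZFC3H1 was at 15.8 and 4.12 FPKM with fluorouracil and 9.39 and 11.5 FPKM untreated. Its treated values enclose the untreated pair. PABPN1, the nuclear poly(A)-binding protein, had 2.57 and 16.9 FPKM with fluorouracil and 1.23 and 2.11 FPKM untreated, the widest gap between treated libraries in the list on the log2 scale (2.67).

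Of the cap-binding and ARS2 group, which links capped transcripts to these adaptors, NCBP1 was lower in both treated libraries (24.8 and 12.1 FPKM with fluorouracil, 29.4 and 25.0 FPKM untreated) and ZC3H18 was higher (21.9 and 32.7 FPKM with fluorouracil, 19.2 and 21.4 FPKM untreated). NCBP2 and SRRT overlapped, with log2 changes of -0.04 and 0.40. In the cytoplasmic SKI complex, which feeds mRNA to the exosome, TTC37 had 27.4 and 10.3 FPKM with fluorouracil and 33.9 and 34.1 FPKM untreated (log2 change -1.01, SE 0.55, limma adjusted p = 0.671). TTC37 thus showed a lower pair, whereas its partners SKIV2L and WDR61 and the bridging factor HBS1L overlapped, with log2 changes of 0.16, 0.03 and 0.12.

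**Figure D4:**
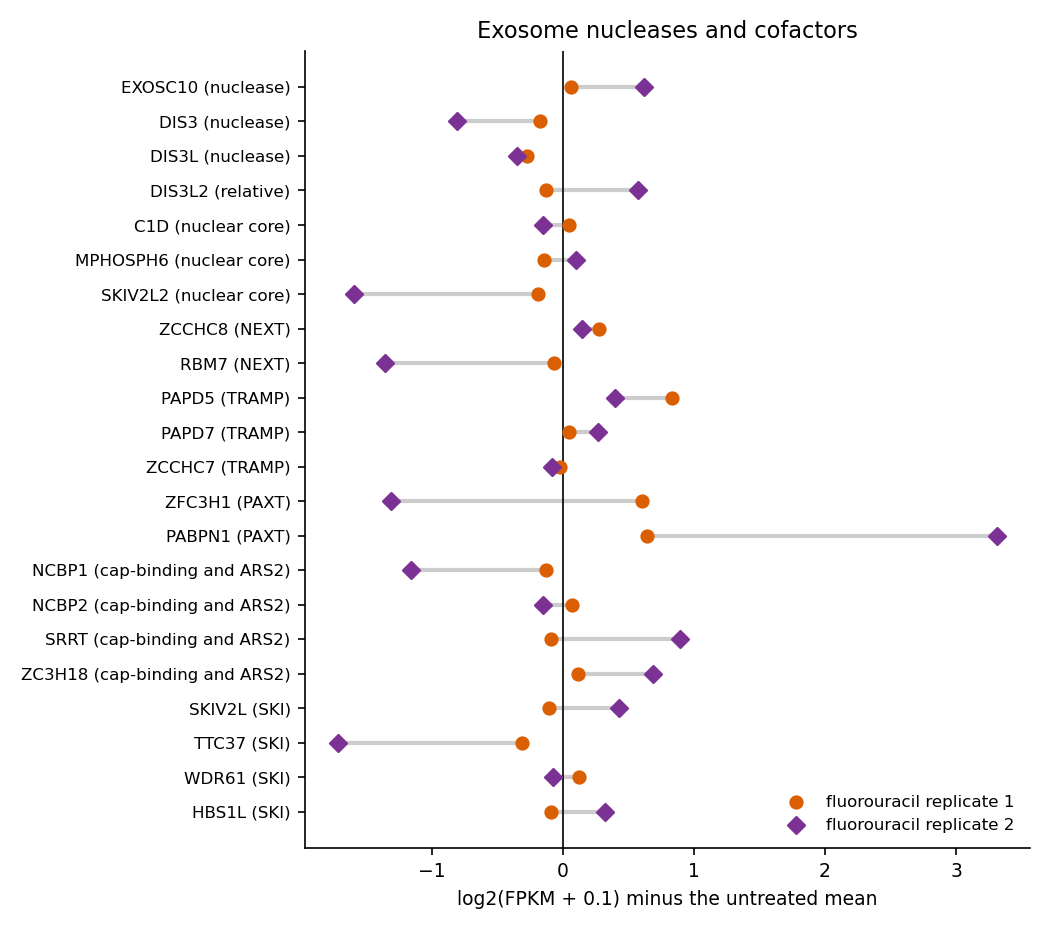
Log2(FPKM + 0.1) minus the untreated mean in each fluorouracil library for EXOSC10, DIS3, DIS3L, DIS3L2 and the 18 exosome cofactors, labelled with their complex; a grey bar joins the 2 libraries. DIS3L, PAPD5 and PABPN1 have both symbols on 1 side of 0 and away from it. SKIV2L2, RBM7, NCBP1 and TTC37 have both below 0, far from it in fluorouracil replicate 2 and nearer to it in replicate 1. In replicate 1 TTC37, at -0.31, is still farther from 0 than DIS3L, at -0.28.

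By shape over the 4 libraries, the tested genes outside these lists most like EXOSC10 included C21orf59, RAB5B, SRPR and TUBGCP6, with Euclidean distances of 0.010 to 0.041 between log2 values centred on each gene's mean. C21orf59, for example, had 27.1 and 40.1 FPKM with fluorouracil and 25.6 and 26.6 FPKM untreated. Other subunits were less alike: the nearest, EXOSC1, was at a distance of 0.20, with 553 tested genes nearer, and the farthest, EXOSC3, at 1.21, with 8699 nearer.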

How the data were processed

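The authors deposited 1 table, with 33117 rows of FPKM values in 1 column per library; the unit follows from the values and from the tools, as no header names it. TopHat2 2.1.0 and Cufflinks 2.2.1, with the builds hg38 and mm10, are listed per the submitters' processing notes, with no role given. The sources used here do not give the annotation, strand or scaling of libraries. FPKM depends on the library total and on the length model, so a few abundant transcripts can shift all other values. In the table, 28 rows with a date-like number for a symbol were left out.

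Log2(FPKM + 0.1) of genes averaging 1 FPKM or more was compared by limma 3.58.1 (R 4.3.3; prior variance trended on level; two-sided; residual degrees of freedom 2). Benjamini-Hochberg adjustment ran over 12462 genes with a threshold of 0.05. The fit was tested on simulated data in which every library had the spread of the untreated pair. That simulation leaves out the wider gap within the fluorouracil pair, so it cannot show how the fit behaves with such unequal gaps. Position, transcript length and GC content came from GENCODE 29 (GRCh38), matched by symbol, older symbol or synonym for 11707 of the tested genes, 10938 of them protein-coding; the transcript was the principal one. The trend was a loess fit with span 0.3. Around the subunit rows, fluorouracil replicate 2 followed the other libraries in place (r of 0.915 across 90 rows). The named genes are the 10 subunits, 3 nucleases and 18 cofactors whatever their result, the pair with the smallest p from each of 3 decay lists, and the 5 genes nearest to EXOSC10, of which 1 is not reported here. Members, lists and rule were chosen with earlier results of these data known. Other genes were named after their values were seen.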

Additional observations from a re-analysis of the deposited data

How the results depend on the processing

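Among 11 alternatives a subunit passed in a single one, the fit without fluorouracil replicate 1, which assumes for its single treated library the spread of the untreated pair: EXOSC1, EXOSC3, EXOSC5, EXOSC6, EXOSC7, EXOSC9 and EXOSC10 passed there (limma adjusted p from 0.0105 to 0.0317), as did 8337 of the 12462 genes. The number of genes called was 0 as reported, 339 with the replicate block, and 0 to 8337 when 1 library was left out, with 18 called without fluorouracil replicate 2. In the labels, same-numbered replicates share only a number, and no subunit passed with the block. Between the replicate differences of the 2 groups, r was -0.0479 across 12462 genes. The median gap over all genes was 0.83 within the fluorouracil pair and 0.14 within the untreated pair. With gaps so unequal, this r cannot show whether the replicates were paired. The cause of the values that moved or reversed was not tested.

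Subunits with non-overlapping higher values numbered 2 as reported, 0 with libraries scaled to the same FPKM total, 1 after quantile normalization, 0 with the GC and length trend removed (with or without the replicate block), and 2 to 7 when 1 library was left out, with 7 without fluorouracil replicate 1 and 4 without untreated replicate 1. Of all genes, 24.4% had such values as reported, 12.5% at the same total, 20.8% after quantile normalization and 18.8% with the trend removed. The share was 52.9% without fluorouracil replicate 1 and 32.9% without untreated replicate 1. Subunits with non-overlapping lower values numbered 1 as reported, 4 at the same total, 3 with the trend removed (with or without the block) and 1 to 3 when 1 library was left out, with 3 without either fluorouracil library or untreated replicate 2. Of all genes, 19.3% had such lower values as reported, 31.1% at the same total and 28.4% with the trend removed. The share was 41.4% without fluorouracil replicate 1, 36.4% without fluorouracil replicate 2 and 25.5% without untreated replicate 2. The median log2 change of the subunits, 0.21 as reported, was -0.22 at the same total, 0.01 after quantile normalization, -0.25 with the trend removed (with or without the block) and -0.04 to 0.59 when 1 library was left out. Scaling to the same total moved the median of all genes by -0.43, quantile normalization by -0.12 and removal of the trend by -0.14.

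With the trend removed, with or without the block, log2 changes of opposite sign were -0.20 for EXOSC1, -0.30 for EXOSC5, -0.13 for EXOSC7, -0.11 for EXOSC8, 0.025 for DIS3, -0.13 for DIS3L2, 0.48 for C1D, -0.27 for PAPD7, 0.075 for ZCCHC7, 0.018 for ZFC3H1, 0.047 for NCBP2, -0.081 for SRRT, -0.062 for ZC3H18, -0.29 for SKIV2L and -0.32 for WDR61. At the same total they were -0.17 for EXOSC1, -0.070 for EXOSC6, -0.014 for EXOSC7, -0.27 for EXOSC8, -0.090 for EXOSC10, -0.20 for DIS3L2, -0.21 for ZCCHC8, -0.27 for PAPD7, -0.027 for SRRT, -0.027 for ZC3H18, -0.27 for SKIV2L, -0.40 for WDR61 and -0.31 for HBS1L. After quantile normalization they were -0.017 for EXOSC8, -0.17 for WDR61 and -0.00066 for HBS1L. When 1 library was left out, signs differed for EXOSC1 (-0.10 to 0.62), EXOSC3 (-0.79 to 0.0077), EXOSC4 (-0.64 to 0.56), EXOSC5 (-0.030 to 1.15), EXOSC6 (-0.046 to 0.76), EXOSC7 (-0.14 to 0.97), C1D (-0.15 to 0.047), DIS3L2 (-0.13 to 0.57), HBS1L (-0.090 to 0.32), MPHOSPH6 (-0.14 to 0.10), NCBP2 (-0.15 to 0.067), SKIV2L (-0.11 to 0.43), SRRT (-0.090 to 0.90), WDR61 (-0.074 to 0.12), ZCCHC7 (-0.19 to 0.077) and ZFC3H1 (-1.31 to 0.60). Depth is unknown, so no counting interval can be given.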

Other observations

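Of 17 genes of 5′ to 3′ decay, 7 had both fluorouracil values above both untreated values and 0 had both below, with a median log2 change of 0.27, where 24.4% and 19.3% of all tested genes did so and the median of all genes was 0.10. Taken by library, the list's median deviated from the untreated mean by 0.11 in fluorouracil replicate 1 and by 0.30 in fluorouracil replicate 2. Smallest in p were DCP1B, a decapping cofactor, at 2.58 and 5.43 FPKM with fluorouracil and 2.40 and 1.86 FPKM untreated, and LSM2, of the ring that binds decaying mRNA ends, at 44.2 and 86.2 FPKM with fluorouracil and 43.6 and 38.5 FPKM untreated (limma adjusted p = 0.671 for both). After removal of the trend on GC and length, 2 of the 17 genes had higher and 1 lower values (18.8% and 28.4% of all genes), and the median was -0.04. At the same FPKM total 1 and 2 did (12.5% and 31.1%), with a median of -0.16, against -0.32 for all genes. After quantile normalization 3 and 2 did (20.8% and 22.5%), with a median of 0.019, against -0.015 for all genes. Without fluorouracil replicate 1 the lower count was 6 (41.4% of all genes), without fluorouracil replicate 2 it was 3 (36.4%) and without untreated replicate 1 it was 4 (26.4%). The cytoplasmic exonuclease XRN1, picked after its values were seen, had 4.44 and 1.22 FPKM with fluorouracil, against 4.09 and 4.12 FPKM untreated.

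Of 14 deadenylase genes, 2 had non-overlapping higher and 2 non-overlapping lower values, with a median log2 change of -0.10, beside 24.4% and 19.3% of all tested genes. The lower count was 10 without fluorouracil replicate 1 (41.4% of all genes), 9 without untreated replicate 1 (26.4%), 5 at the same FPKM total (31.1%) and 4 after removal of the trend on GC and length (28.4%), and the higher count was 4 without fluorouracil replicate 2 (39.0%) and 1 at the same total (12.5%). The median was -0.52 at the same total, against -0.32 for all genes. CNOT4, the ubiquitin ligase of the CCR4-NOT complex, measured 7.997 and 8.77 FPKM with fluorouracil and 5.05 and 5.32 FPKM untreated (log2 change 0.68, SE 0.27, limma adjusted p = 0.671), and its treated libraries lay close together. CNOT3, a scaffold subunit, had 33.4 and 58.1 FPKM with fluorouracil, against 26.2 and 26.9 FPKM untreated. Among 10 genes of nonsense-mediated decay, 3 had non-overlapping higher values and 1 lower values, with a median log2 change of 0.23. For all tested genes the shares were again 24.4% and 19.3%. The list's counts were 1 and 4 after removal of the trend on GC and length (18.8% and 28.4% of all genes), with a median of 0.0030. They were also 1 and 4 at the same FPKM total (12.5% and 31.1%), with a median of -0.20, against -0.32 for all genes. Leaving out fluorouracil replicate 1 gave 6 and 3 (52.9% and 41.4% of all genes), and leaving out fluorouracil replicate 2 gave 5 and 3 (39.0% and 36.4%). Leaving out untreated replicate 1 gave 3 and 2 (32.9% and 26.4%), and leaving out untreated replicate 2 gave 5 and 1 (32.2% and 25.5%). SMG9, a regulator of the kinase SMG1, was at 30.5 and 65.0 FPKM with fluorouracil and 28.6 and 27.5 FPKM untreated, and UPF2, which joins UPF1 to the exon junction, was at 33.1 and 19.0 FPKM with fluorouracil and 33.0 and 37.4 FPKM untreated. None of these 41 genes had an unadjusted p below 0.05.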
